A study of Rattus norvegicus with 20 samples.

Results

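Genes of the vessel wall and of the blood-nerve barrier were followed in dorsal root ganglia (DRG) of rats fed soy oil or fish oil before a sciatic nerve injury. The set holds 10 of the 39747 genes in the deposited files, chosen by symbol: Pecam1, Cdh5, Cldn5, Ocln, Tjp1, Flt1, Kdr, Tek, Plvap, and Vwf. All 10 were found, all 10 passed the filter on low counts in each model, and Pecam1 has a second, short gene model that is described at the end. RNA was sequenced from 20 DRG of 14 female Sprague–Dawley rats aged 8 to 10 weeks by the study's account. All rats were wild type, and feeding on the diets started 4 weeks ahead of surgery. Left DRG were taken from rats on the soy oil diet with sham surgery (SOD-CT, n = 4) or with chronic constriction injury of the left sciatic nerve by 4 loose ligatures (SOD-CCI, n = 3), and from rats on the fish oil diet with sham surgery (FOD-CT, n = 3) or with the injury (FOD-CCI, n = 4). The contralateral (right) DRG were those of the same 3 SOD-CCI rats and of 3 FOD-CCI rats. Sham surgery exposed the nerve without ligatures. The study places collection 7 days after surgery, although its methods also describe 4 more weeks of feeding afterwards, a point the files leave unanswered. By the same account, the rats were perfused with saline before dissection, and 1 SOD-CCI and 1 FOD-CT sample had been excluded before library preparation.

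The endothelium is the inner cell layer of blood vessels. In peripheral nerve its cells are joined by tight and adherens junctions that restrict passage from blood into the tissue, and with the perineurium they form the blood-nerve barrier, whereas vessels around the neuron cell bodies of the DRG are known to be more permeable. Endothelial growth and stability are controlled by vascular endothelial growth factor (VEGF) and angiopoietins, which act on receptor tyrosine kinases of the vessel wall. A whole DRG holds mostly neurons, satellite glia, Schwann cells, and fibroblasts, and its few endothelial cells supply a small share of the RNA. In such bulk samples, fewer endothelial cells and less RNA per endothelial cell cannot be told apart.

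Together the 10 genes took between 0.0171% and 0.105% of the counts of a library. Neuron, Schwann cell, and satellite glia markers were high in every group, as the labelled tissue implies, and 20 other endothelial genes were detected alongside. The deposited counts summed to between 22547190 and 54437581 per library, and levels are given below in CPM, counts divided by the library total after it was multiplied by a TMM factor (0.651 for SOD-CT replicate 1 and 0.941 to 1.13 for the others). Libraries of a group were not copies of each other: across genes, their Spearman correlations ran from 0.811 to 0.983 over 24 pairs. Some libraries carried transcripts of other tissues. The summed level of 9 spinal cord glia genes was 2306 CPM in FOD-CT replicate 1, 1957 CPM in FOD-CCI replicate 1, and 2635 CPM in replicate 1 of the FOD-CCI contralateral DRG, against 17.8 to 78.0 CPM in the other 17 libraries, and that of 11 skeletal muscle genes was 173800 CPM in SOD-CT replicate 1, with lower amounts in others, such as 25514 CPM in FOD-CT replicate 2, 8630 CPM in contralateral FOD-CCI replicate 3, and 6556 CPM in SOD-CT replicate 4. A list of 11 nerve injury genes summed to between 1948 and 2478 CPM in SOD-CCI and between 306 and 662 CPM in the sham groups. In FOD-CCI it reached 1318 to 3553 CPM in 3 libraries, but the library labelled FOD-CCI replicate 1 had 346 CPM, inside the sham range. Results are therefore also given without 4 libraries: replicate 1 of SOD-CT, FOD-CT, FOD-CCI, and the contralateral FOD-CCI DRG. No model held all 4, and each such fit left out those of them that its model held. The libraries kept in those fits still include the last 3 named for muscle. Shares of all genes higher, lower, or at an unadjusted p under 0.05 are given for fits with all libraries only. Counts of members from fits that leave out libraries or add a replicate block have no such share beside them. Whether those counts were particular to the members was not tested.

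Of the 6 members with a promoter in the RefSeq table used here (build GRCr8), Cldn5 and Plvap are shown. The first encodes a tight junction claudin and the second a protein of leaky, fenestrated endothelium. For both, all FOD-CCI libraries lay above all SOD-CCI libraries, as given below, although neither gene was called. Each line gives the 250 bases before the start site, 5′ to 3′ on the gene's strand, at chr11:95718599-95718848 (minus strand) for Cldn5 and chr16:18231280-18231529 (minus strand) for Plvap. Capitals mark GGAAG or its reverse complement CTTCC, a form of the site bound by ETS factors, a family with known roles in endothelial gene expression. Other forms of the ETS site, such as a core of GGAA or GGAT with other bases after it, were not searched for.
Cldn5: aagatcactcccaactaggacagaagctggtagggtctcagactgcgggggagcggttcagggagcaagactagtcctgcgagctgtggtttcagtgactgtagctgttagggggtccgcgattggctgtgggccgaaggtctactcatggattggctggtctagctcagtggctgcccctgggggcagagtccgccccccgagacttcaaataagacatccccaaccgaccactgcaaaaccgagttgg
Plvap: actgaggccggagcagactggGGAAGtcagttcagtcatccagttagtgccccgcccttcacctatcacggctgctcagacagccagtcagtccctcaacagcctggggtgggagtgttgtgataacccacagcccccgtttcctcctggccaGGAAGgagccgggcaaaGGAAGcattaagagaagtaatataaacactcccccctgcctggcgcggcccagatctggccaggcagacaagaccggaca
Plvap held 3 such matches and Cldn5 none. Among the other 4, Flt1 had 3, Ocln and Kdr 1 each, and Tjp1 none, while 63.3% of the 33469 promoters of this length held at least 1. TATAAA or TTTATA was found in Plvap and Flt1, and in 12.9% of all promoters. The forkhead motif GTAAACA or TGTTTAC was in 3.21% of all promoters and in none of these 6. Promoters of Pecam1, Cdh5, Tek, and Vwf were not used here.

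Levels can be compared between genes only per gene length, and the authors' FPKM values (fragments scaled to gene length and to a size per library, which in these files is not the sum of its counts) were used for this. Cldn5, the main claudin of barrier endothelium, was the most abundant member, with a median of 56.5 FPKM over the 20 libraries and a range of 29.5 to 259. Its lowest library lay above the highest library of any other member. Tjp1 (also called ZO-1), a scaffold under tight junctions of many cell types, came next at 12.9 FPKM (7.98 to 24.5), and Tek, the angiopoietin receptor Tie2, followed at 6.18 FPKM (3.64 to 18.6). Cdh5 (4.84), Plvap (4.67), Vwf (4.67), and Pecam1 (4.46) had medians close together and ranges that overlapped widely, so their order is not separated by the spread between libraries. The VEGF receptors were lower, at 2.75 FPKM for Kdr and 2.44 FPKM for Flt1, again with overlapping ranges. Ocln, the tight junction protein occludin, was the lowest at 1.22 FPKM (0.27 to 6.55). No member was at 0 in any library, and the smallest count was 27, for Ocln.

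**Figure D1:**
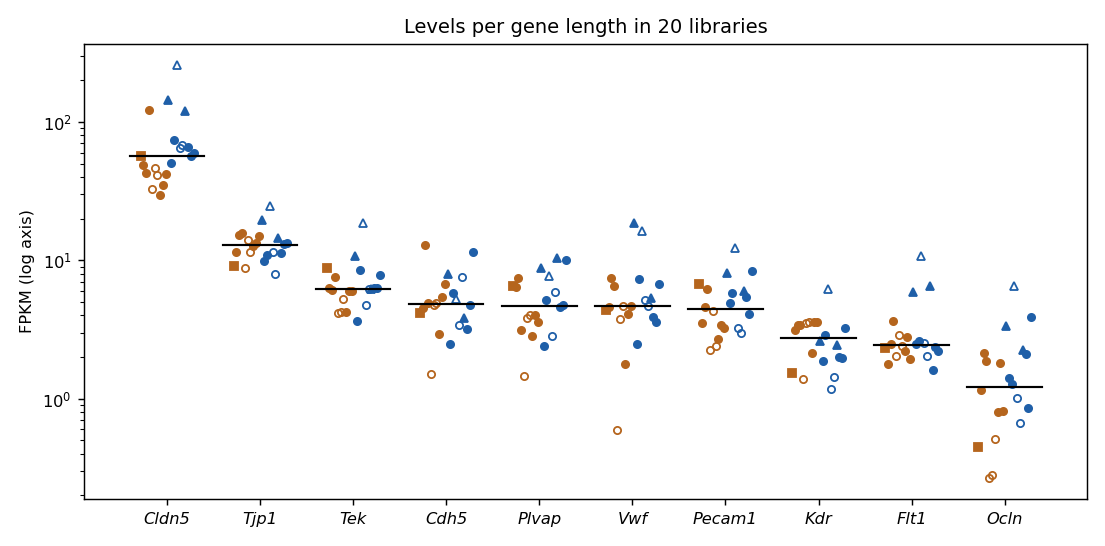
FPKM (log axis) of the 10 genes in 20 libraries, ordered by median (black line). Brown is soy oil diet, blue is fish oil diet, open symbols are contralateral DRG, triangles are the 3 libraries with spinal cord transcripts, and the square is the library with the most muscle transcripts. Cldn5 lies above all others, with a median of 56.5 FPKM against 1.22 FPKM for Ocln.

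The members differed in how much they varied. The coefficient of variation of CPM over the 20 libraries was lowest for Tjp1 (28.3%) and highest for Ocln (88.8%), and Vwf, the clotting factor stored in endothelial granules, spanned a 31.0-fold range from 5.30 to 164 CPM. Single libraries set these ranges. The contralateral FOD-CCI replicate 1, which carried spinal cord transcripts, was the highest of all 20 for 7 members (Cldn5, Tjp1, Tek, Pecam1, Kdr, Flt1, and Ocln), and the members summed to 985 CPM there. Contralateral SOD-CCI replicate 1 was the lowest for 5 members (Cdh5, Plvap, Vwf, Pecam1, and Ocln), and its members summed to 175 CPM. In the other 18 libraries the sum ran from 221 to 697 CPM, with the 697 CPM in FOD-CT replicate 1, also a library with spinal cord transcripts. The part of those transcripts in the high levels was not tested.

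**Figure D2:**
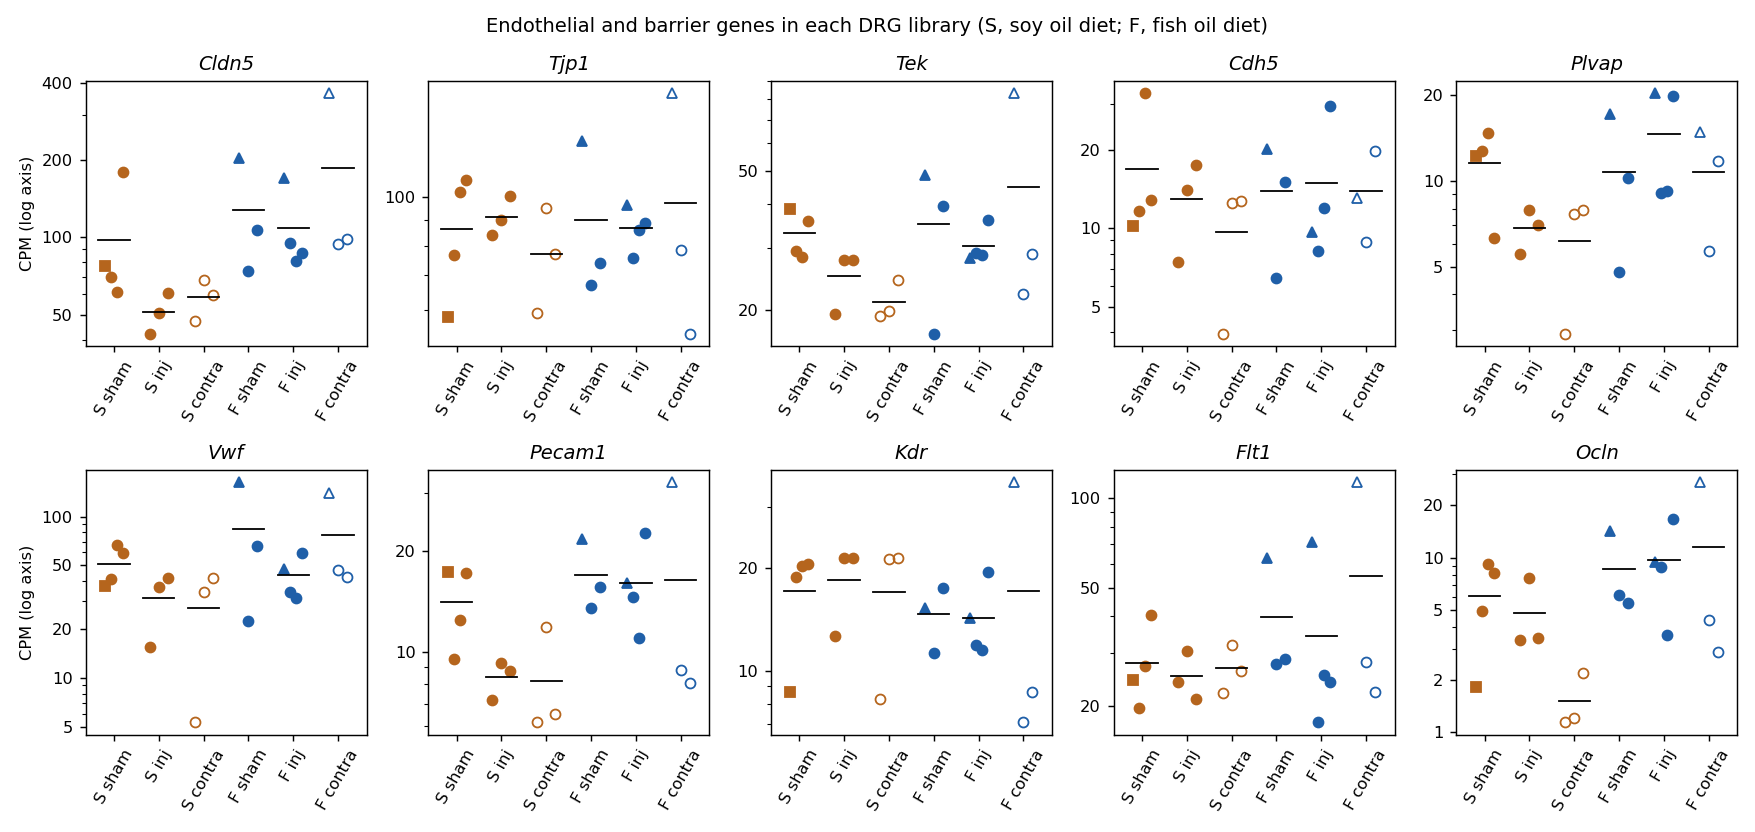
CPM (log axis) of each gene in every library, by group, with the group mean as a black line. Colors and symbols are as for the FPKM plot, inj is the injured left DRG, and contra is the contralateral DRG. SOD-CCI points lie below all SOD-CT points for Cldn5, Tek, and Pecam1, and the highest point is an open triangle for 7 genes.

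As a description over the 20 libraries, which share depth, tissue composition, and rats, Spearman correlations between members were highest for Pecam1 with Tek (0.74), Tek with Plvap (0.74), Pecam1 with Cldn5 (0.73), and Cdh5 with Vwf (0.73). Kdr had -0.05 against Cldn5 and 0.18 against Pecam1. With group means removed these were 0.57 and 0.59, and the highest of all pairs was Kdr with Vwf (0.84). Outside the members, the genes most like the mean standardised level of the 7 members used as endothelial markers (Pecam1, Cdh5, Flt1, Kdr, Tek, Plvap, and Vwf, of which Pecam1 and Vwf are also known from platelets) among 14425 ranked genes were Rnase4, a secreted ribonuclease, with a correlation of 0.93, Cfb, complement factor B (0.90), Dhrs3, a retinal reductase (0.90), Dnah11, an axonemal dynein (0.90), and Pgm5 (0.89). In the 16 libraries other than those 4 these were between 0.83 and 0.89. Over the 20 other endothelial genes the median was 0.56, from 0.12 for Egfl7 to 0.86 for Ptprb, against 0.00 over all ranked genes.

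The first question was whether injury on the soy oil diet moved these genes in the left DRG. In SOD-CCI, 8 of the 10 members were lower than in SOD-CT, with a median log2 fold change (log2FC) of -0.37 against -0.01 over all 14484 genes tested, of which 50.7% were lower. A gene was called at an edgeR adjusted p of at most 0.1 with a fold change of at least 1.2. No member was called, nor was any other gene (0%), and by the DESeq2 Wald test, which called 594 genes, the members called were also 0. At an unadjusted p under 0.05, 1 member was lower and none higher in edgeR, where 8.8% of all genes were lower and 5.05% higher. In DESeq2, 2 members were lower, and 2334 of the 14484 genes were past that threshold in either direction.

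Pecam1, the adhesion molecule CD31 found along endothelial cell contacts, was the member past that threshold in edgeR. It stood at 17.4, 9.51, 12.4, and 17.2 CPM in the 4 SOD-CT libraries and at 7.18, 9.29, and 8.75 CPM in the 3 SOD-CCI libraries. Every SOD-CCI library was thus below every sham library, although the gap between 9.29 and 9.51 CPM was narrow. The log2FC was -0.72 (SE 0.32, edgeR adjusted p = 0.341). Cldn5 gave 77.7, 70.2, 61.5, and 180 CPM in SOD-CT and 42.1, 50.7, and 60.6 CPM in SOD-CCI. These groups did not overlap either, and 1 sham library, replicate 4, was far above the others. Its log2FC was -0.89 (SE 0.42, edgeR adjusted p = 0.366), and -0.43 without SOD-CT replicate 4. For Tek, values of 38.7, 29.4, 28.3, and 35.8 CPM in SOD-CT stood against 19.4, 27.7, and 27.6 CPM in SOD-CCI, a log2FC of -0.38 (SE 0.30, edgeR adjusted p = 0.576). Groups that did not overlap, with injury lower, were found for 3 of the 10 members and for 8.24% of all genes tested, and with injury higher for 0 members and 9.56% of genes.

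The other members overlapped between these groups. Plvap, a protein of the diaphragms of fenestrated and caveolar vessels, had a mean of 6.82 ± 1.21 CPM (SD, n = 3) in SOD-CCI and 11.5 ± 3.63 CPM (n = 4) in SOD-CT, with a log2FC of -0.74 (SE 0.47). Vwf had a log2FC of -0.69 (SE 0.53), Cdh5, the endothelial cadherin of adherens junctions, -0.36 (SE 0.56), Ocln -0.29 (SE 0.61), and Flt1, the VEGF receptor that also acts as a decoy, -0.12 (SE 0.45). Kdr, the main signalling receptor for VEGF, had 0.14 (SE 0.33) and Tjp1 0.11 (SE 0.26). The edgeR adjusted p of these 7 members ran from 0.484 for Plvap to 0.926 for Flt1. Without the 4 libraries, 10 of 10 members were lower, with a median of -0.57. Cldn5 was then the 1 member at an unadjusted p under 0.05 (log2FC -1.0, edgeR adjusted p = 0.245). No member was called in that fit, while 200 of 15177 genes were.

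The 20 other endothelial genes had a similar pattern in this comparison, with 18 lower, a median of -0.42, and 1 lower at an unadjusted p under 0.05. Their summed level was 156 to 224 CPM in SOD-CCI and 266 to 305 CPM in SOD-CT. Of 11 further tight junction genes, 9 were lower (median -0.19), and the 1 at an unadjusted p under 0.05 was higher. Of 8 VEGF and angiopoietin ligands, 7 were lower (median -0.22), 1 of them at an unadjusted p under 0.05. Pericyte and smooth muscle genes, which cover the vessel wall, had 6 of 11 lower (median -0.10), and their summed level, 157 to 248 CPM in SOD-CCI, stood against 234 to 3904 CPM in SOD-CT, where the highest value was that of SOD-CT replicate 1. Red cell genes were lower in 6 of 6 (median -3.09), with sums of 95.1 to 653 CPM in SOD-CCI and 125 to 9597 CPM in SOD-CT. Both tested platelet genes were lower (median -0.83), without reaching an unadjusted p under 0.05. Skeletal muscle genes were lower in 4 of 4 tested, each at an unadjusted p under 0.05 (median -10.2), Schwann cell genes in 7 of 8 (median -0.45), and fibroblast genes in 5 of 5 (median -0.34). The part of blood or of other tissues in the members' values was not tested. In the same comparison the nerve injury genes were higher in 10 of 10, with a median of 2.44.

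On the fish oil diet, the direction of the difference with injury depended on the fit. FOD-CCI was higher than FOD-CT for 3 of 10 members (median -0.06, against 0.01 over all genes, of which 50.8% were higher), and 0 members had an unadjusted p under 0.05, beside 3.2% of all genes higher and 1.31% lower. With the replicate number as a block, 1 of 10 was higher (median -0.21), and without the 4 libraries 7 of 10 were (median 0.14). With all libraries no gene was called by edgeR (0%), while DESeq2 called 21 genes and no member. Without the 4 libraries, edgeR called 526 of 15177 genes and no member. The value furthest from 0 was that of Vwf, at 164, 22, and 65.4 CPM in FOD-CT and 47.3, 34.3, 31.4, and 59.7 CPM in FOD-CCI. The groups overlapped, and the highest sham value came from replicate 1, which carried spinal cord transcripts. The log2FC was -0.96 (SE 0.51, edgeR adjusted p = 1), and -0.07 without the 4 libraries named above. The 20 other endothelial genes had 16 lower, with a median of -0.25, while red cell genes were higher in 6 of 6 (median 3.27) and macrophage genes in 8 of 8 (median 1.44). Skeletal muscle genes were lower in 4 of 4 tested, each at an unadjusted p under 0.05 in edgeR (median -7.28). Pericyte and smooth muscle genes were lower in 9 of 11 (median -0.18). The part of these tissues in the members' values was not tested.

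Whether the injury effect differed between diets was tested as an interaction. It was above 0 for 6 of 10 members, with a median of 0.32 against 51.4% of all genes above 0, and for 4 of 10 with a replicate block (median -0.07), and called 0 genes in edgeR (0%) and 42 in DESeq2, of which none was a member. Plvap had the largest value, 1.19 (SE 0.66, edgeR adjusted p = 0.894). Without the 4 libraries it was 1.48 (edgeR adjusted p = 0.722), the 1 member then at an unadjusted p under 0.05, and 9 of 10 members were above 0, with a median of 0.76. At an unadjusted p under 0.05, the interaction had 0 members in edgeR with all libraries, beside 4.32% of all genes above 0 and 0.684% below.

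**Figure D3:**
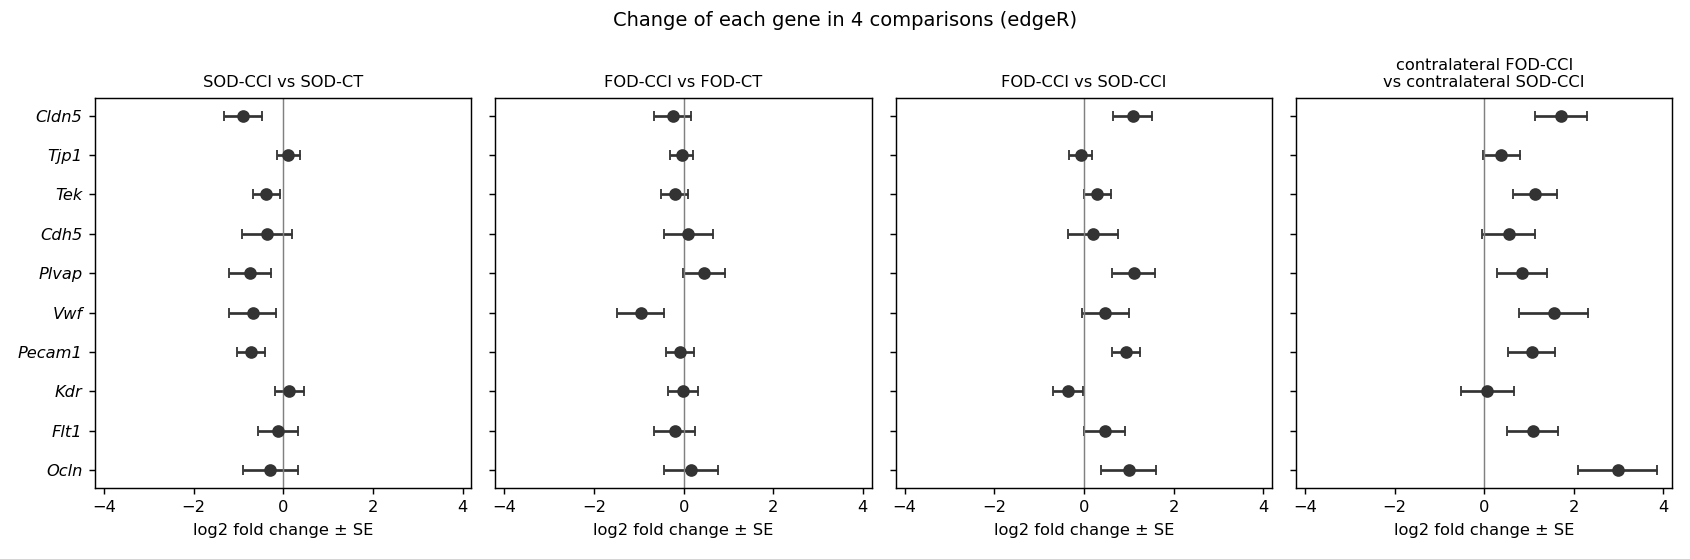
Log2 fold change with its standard error (edgeR) for each gene in 4 comparisons, ordered by FPKM. Injury on soy oil gave 8 of 10 values below 0, injury on fish oil 7 of 10 below 0, the fish oil against the soy oil diet after injury 8 of 10 above 0, and the same diets in contralateral DRG 10 of 10 above 0.

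In injured DRG, members were mostly higher on fish oil than on soy oil. FOD-CCI exceeded SOD-CCI for 8 of 10, with a median log2FC of 0.47 against 0.04 over all genes, of which 54.3% were higher. Both this comparison and the comparison of SOD-CCI with SOD-CT use the 3 SOD-CCI libraries, so they are not independent of each other. No gene was called by edgeR (0%), and DESeq2 called 2 genes and no member. At an unadjusted p under 0.05 in edgeR, 3 members were higher, beside 3.87% of all genes, while 0 members and 1.53% of genes were lower. In DESeq2, 3 members were higher, and 973 of the 14484 genes were past that threshold in either direction.

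Pecam1 stood at 16.1, 14.5, 11, and 22.6 CPM in FOD-CCI, all above the 7.18 to 9.29 CPM of SOD-CCI. The log2FC was 0.94 (SE 0.32, edgeR adjusted p = 0.859), and 0.93 without the 4 libraries. Cldn5 had 170, 94.9, 80.6, and 87.0 CPM, again all above the 42.1 to 60.6 CPM of SOD-CCI, and its highest value was that of the library labelled FOD-CCI replicate 1. Its log2FC was 1.09 (SE 0.43, edgeR adjusted p = 0.859), or 0.78 without that library and replicate 1 of SOD-CT and FOD-CT (edgeR adjusted p = 0.387). Plvap fell into a high and a low pair of FOD-CCI libraries, with 20.3 and 19.9 CPM in replicates 1 and 4 and 9.04 and 9.19 CPM in replicates 2 and 3, all above the 5.53, 7.92, and 7.02 CPM of SOD-CCI. This gave a log2FC of 1.11 (SE 0.47, edgeR adjusted p = 0.859), and 0.90 (edgeR adjusted p = 0.415) without the 4 libraries. Tek was the other member without overlap, at 28.1, 29.0, 28.7, and 36.1 CPM against at most 27.7 CPM, a difference within its error (log2FC 0.30, SE 0.30). Groups with FOD-CCI higher and no overlap were thus found for 4 of 10 members, and for 7.2% of all genes, and with FOD-CCI lower for 0 members and 7.46% of genes.

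Ocln had a log2FC of 1.00 with a wide error (SE 0.62), since its values ran from 3.61 to 16.6 CPM in FOD-CCI and from 3.38 to 7.67 CPM in SOD-CCI. Vwf (0.47, SE 0.52), Flt1 (0.46, SE 0.46), and Cdh5 (0.20, SE 0.56) were closer to 0, and Tjp1 (-0.07, SE 0.26) and Kdr (-0.36, SE 0.33) were below 0. The Flt1 value rested on the library labelled FOD-CCI replicate 1, at 71.0 CPM against 17.6 to 25.3 CPM in the other 3, and was -0.17 without it. Over the 10 members the edgeR adjusted p ran from 0.859 to 0.976, which does not show that the diets gave equal levels. Without the 4 libraries, 7 of 10 members were higher (median 0.39), 2 of them at an unadjusted p under 0.05, and 0 of 15177 genes were called.

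Of the 20 other endothelial genes, 15 had higher levels on the fish oil diet (median 0.27), with 2 at an unadjusted p under 0.05. Of the VEGF and angiopoietin ligands, 7 of 8 were higher (median 0.61, 0 at an unadjusted p under 0.05), and of the barrier transport genes, such as glucose and efflux transporters, 6 of 9 (median 0.19). Red cell genes were higher in 6 of 6, each at an unadjusted p under 0.05, with a median of 4.44 and sums of 554 to 22379 CPM in FOD-CCI against 95.1 to 653 CPM in SOD-CCI. Spinal cord glia genes were higher in 4 of 4 tested, with sums of 77.2 to 1957 CPM against 49.6 to 61.3 CPM. The part of blood or of spinal cord in the members' difference was not tested.

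Without injury, the diets did not separate. FOD-CT was higher than SOD-CT for 7 of 10 members (median 0.20, with 48.6% of all genes higher), with 0 members at an unadjusted p under 0.05, beside 1.77% of all genes higher and 1.62% lower, and no gene called in edgeR (0%) or DESeq2. The count turned to 1 of 10 higher without the 4 libraries (median -0.34), where Tjp1 was lower at an unadjusted p under 0.05 in edgeR (log2FC -0.43, adjusted p = 1).

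Left and contralateral DRG of the same rat were compared next, with the rat as a block. On soy oil, 8 of 10 members were higher on the injured side, with a median log2FC of 0.27 and 52.2% of all 14549 genes higher. The model called 0.131% of all genes, 19 in number and with nerve injury genes such as Gal, Ecel1, and Jun among them, and no member, and DESeq2 called 472 genes and no member. At an unadjusted p under 0.05, 1 member was higher, beside 5.34% of all genes, and 0 members were lower, beside 3.14%.

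That member was Ocln, at 3.38, 7.67, and 3.49 CPM in the left DRG and 1.14, 1.21, and 2.18 CPM on the uninjured side of the same animals. Left values were 2.96, 6.33, and 1.60 times the contralateral DRG, and the sides did not overlap, which held for 10.6% of all genes in that direction. No member had a left side below the contralateral side without overlap, against 10.1% of genes. The log2FC was 1.65 (SE 0.62, edgeR adjusted p = 0.49). It was 1.64 with an adjusted p of 0.0496 when edgeR was fitted to the SOD-CCI libraries alone. That fit called 1461 of 14794 genes and 1 of the 10 members, so the call does not set Ocln apart from genes in general. Leaving out 1 rat at a time moved it between 1.12 and 2.13. Ocln in SOD-CT, at 1.82, 4.93, 9.15, and 8.16 CPM, was close to the injured side, and the contralateral DRG lay lower: against SOD-CT its log2FC was -2.0 (SE 0.82, edgeR adjusted p = 0.7), or -2.29 (adjusted p = 0.731) without the 4 libraries.

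Cdh5 and Tek also had a higher left side in 3 of 3 soy oil rats, as did 20.4% of all genes, while 0 members and 20.6% of genes had a lower left side in 3 of 3. For Cdh5 the left DRG was 1.89, 1.13, and 1.37 times the contralateral one (log2FC 0.53, SE 0.29, edgeR adjusted p = 0.689), and for Tek 1.01, 1.40, and 1.14 times (log2FC 0.25, SE 0.34, adjusted p = 0.904). Vwf had 2.94, 1.08, and 0.996 times (log2FC 0.55, SE 0.35), with most of it from the rat whose contralateral DRG held 5.30 CPM. Kdr (0.23), Tjp1 (0.29), Plvap (0.28), Pecam1 (0.12), Flt1 (-0.07), and Cldn5 (-0.17) had edgeR adjusted p from 0.847 to 0.967.

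On fish oil, 2 of 10 members were higher on the injured side, with a median of -0.20 and 54.3% of all genes higher. The model called 0.0137% of all genes, 2 in number, and no member, and DESeq2 called 264 genes and no member. At an unadjusted p under 0.05, 1 member was lower, beside 2.65% of all genes, and 0 were higher, beside 4.3%. This was Vwf, at 47.3, 34.3, and 31.4 CPM in the left DRG and 141, 46.9, and 42 CPM in the contralateral DRG. The left DRG was 0.336, 0.731, and 0.748 times the contralateral DRG, lower in 3 of 3 rats, as in 11.6% of all genes (higher in 3 of 3 rats for 0 members and 12.1% of genes). The log2FC was -0.80 (SE 0.35, edgeR adjusted p = 0.706), and -0.42 (edgeR adjusted p = 0.672) without the rat of replicate 1, whose libraries both carried spinal cord transcripts. Cdh5 was likewise lower in 3 of 3 rats, at 0.740, 0.926, and 0.608 times (log2FC -0.41, SE 0.29).

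Replicate 1 set the direction of several other members on fish oil. Its contralateral DRG was the highest library for 7 members, and its left-to-contralateral folds were 0.338 for Tek, 0.349 for Ocln, 0.401 for Kdr, 0.468 for Cldn5, and 0.498 for Pecam1. In replicates 2 and 3 the folds were 1.31 and 0.996 for Tek, 2.02 and 1.26 for Ocln, 1.69 and 1.33 for Kdr, and 1.65 and 1.36 for Pecam1. With both DRG of this rat left out, 6 of 10 members were higher on the injured side, with a median of 0.19. Log2FC with all rats was -0.45 for Cldn5 (SE 0.24, edgeR adjusted p = 0.747), -0.38 for Flt1, -0.37 for Tek, and 0.27 for Plvap, and between -0.03 and 0.07 for Pecam1, Ocln, Tjp1, and Kdr.

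**Figure D4:**
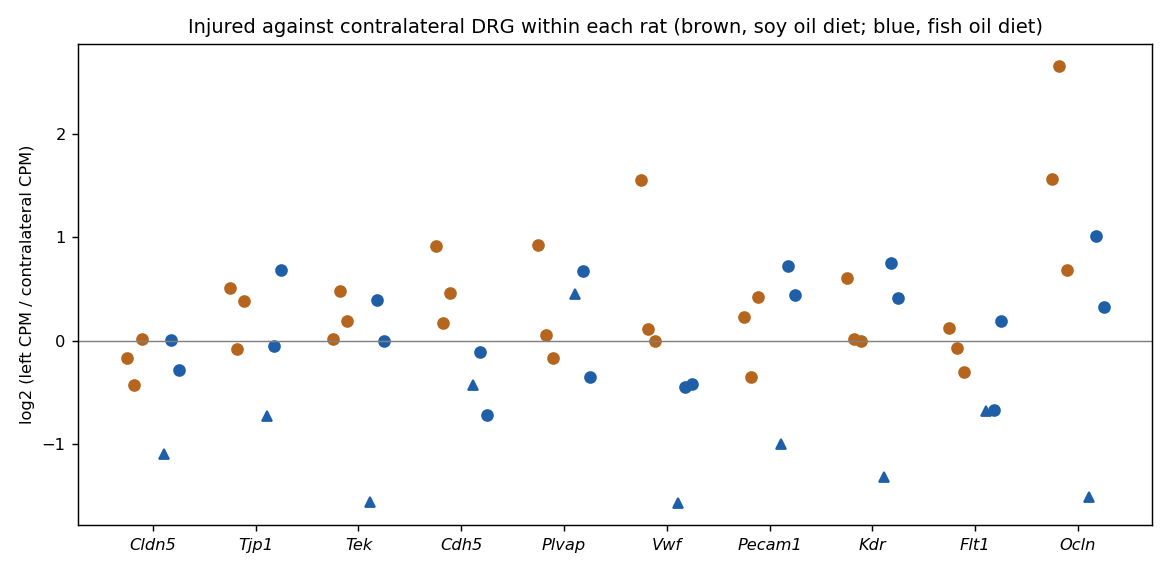
Log2 ratio of left to contralateral CPM in each of 6 rats, brown for soy oil and blue for fish oil. The triangle is the rat of FOD-CCI replicate 1. The 3 brown Ocln points lie above 0, the 3 blue Vwf and Cdh5 points lie below 0, and the triangle is the lowest of its diet for 8 genes.

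The side change was lower on fish oil than on soy oil for 10 of 10 members (median -0.32, with 46.8% of all genes lower). In the test of this difference, 2 members were lower at an unadjusted p under 0.05, beside 2.11% of all genes, and 0 were higher, beside 0.804%. No gene was called in edgeR (0%), whereas DESeq2 called 60 genes and no member. Vwf had -1.35 (SE 0.49, edgeR adjusted p = 0.997), Cdh5 -0.95 (SE 0.41, adjusted p = 0.997), and Ocln -1.68 (SE 0.87, adjusted p = 0.997). Without the rat of FOD-CCI replicate 1, 6 of 10 were lower, with a median of -0.07. Vwf was then -0.96 and Cdh5 -0.93, and neither was at an unadjusted p under 0.05.

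Genes of related cells were read in the same model. On soy oil, 13 of 20 other endothelial genes were higher on the injured side (median 0.14), and Sox18, an endothelial transcription factor, had the highest log2FC (1.54, SE 0.68, edgeR adjusted p = 0.589), while S1pr1, the sphingosine phosphate receptor, had the lowest (-0.65). On fish oil, 15 of 20 were lower (median -0.48), with 2 at an unadjusted p under 0.05, and the lowest was Aplnr, the apelin receptor, at -1.78 (edgeR adjusted p = 0.596). Of the tight junction genes outside the members, 5 of 10 were higher on soy oil (median 0.21) and 2 of 10 on fish oil (median -0.59). Cldn1, a claudin of the perineurium, had 1.02 on soy oil (edgeR adjusted p = 0.592) and -1.99 on fish oil (adjusted p = 0.522). Macrophage genes were higher in 7 of 7 on soy oil (median 1.72, sums of 105 to 170 CPM against 17.8 to 52.5 CPM) and in 5 of 7 on fish oil (median 0.29). Fibroblast genes were higher in 5 of 5 on soy oil and lower in 5 of 5 on fish oil (medians 0.77 and -1.01). Macrophage sums thus did not overlap between the sides on soy oil, where Ocln did not overlap either, and the part of these cells in the members' values was not tested.

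Further pathway lists were read between the sides. The caveolae genes Cav1, Cav2, and Ehd2 had medians of -0.07 on soy oil and -0.64 on fish oil, with Cav1, the coat protein of caveolae, at -0.25 and -0.89 (edgeR adjusted p = 0.577 on fish oil). Tfrc, the transferrin receptor by which iron crosses barrier endothelium, had the highest log2FC of the transport list on both diets, 0.63 (edgeR adjusted p = 0.466) and 0.52 (adjusted p = 0.706). Abcg2, an efflux transporter, had the lowest, -0.26 and -0.46. Jup, the junctional partner plakoglobin, was highest among adherens junction partners at 0.68 (edgeR adjusted p = 0.318) and 0.52 (adjusted p = 0.623). Among Wnt pathway genes of barrier endothelium, medians were 0.22 and -0.25, and Tspan12, a co-receptor for norrin, had 0.54 on fish oil (edgeR adjusted p = 0.623). Vegfa, the main ligand of Flt1 and Kdr, had 0.50 on fish oil (edgeR adjusted p = 0.716), and Angpt2, a ligand of Tek, had 0.50 on soy oil and -0.40 on fish oil. Icam1, a leukocyte adhesion molecule, had 1.12 and -0.75. None of these genes was called in edgeR, and other listed genes that were called are nerve injury genes.

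In contralateral DRG, which received no ligature, 10 of 10 members were higher on fish oil than on soy oil. The median log2FC was 1.07, and 53% of all 14007 genes were higher. No gene was called in edgeR (0%), where 3 members and 4.5% of all genes were higher at an unadjusted p under 0.05, while 0 members and 2.61% of genes were lower. DESeq2 called 58 genes, and Ocln among them. Ocln had 27.2, 4.38, and 2.88 CPM on fish oil and 1.14, 1.21, and 2.18 CPM on soy oil, without overlap, for a log2FC of 2.97 (SE 0.88, edgeR adjusted p = 0.697, and DESeq2 adjusted p = 0.0888). These soy oil libraries also gave the low Ocln side in the comparison within rats and in that with SOD-CT. The Ocln results are thus not independent of each other. Cldn5 had 364, 94.2, and 98.1 CPM against 47.2, 68.4, and 59.8 CPM, also without overlap (log2FC 1.72, SE 0.59, edgeR adjusted p = 0.697). Tek had 83.3, 22.1, and 28.8 CPM against 19.1, 19.8, and 24.2 CPM, which overlapped (log2FC 1.13, SE 0.48, edgeR adjusted p = 0.697). Vwf, at 141, 46.9, and 42 CPM against 5.30, 33.9, and 41.8 CPM, also had no overlap (log2FC 1.55, SE 0.77, edgeR adjusted p = 0.702), a pattern seen in 7.9% of all genes, and the reverse pattern was seen in 0 members and 9.02% of genes.

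These values rested largely on contralateral FOD-CCI replicate 1. Without that library, 0 members were higher at an unadjusted p under 0.05. Ocln then had 1.27 (edgeR adjusted p = 0.965), Cldn5 0.73, Vwf 0.74, and Tek 0.29, and Kdr was lower at an unadjusted p under 0.05 (log2FC -1.09, adjusted p = 0.941). Without it and replicate 1 of SOD-CT and FOD-CT, 7 of 10 members were higher (median 0.39). Ocln (log2FC 1.26, edgeR adjusted p = 0.405) and Kdr (-1.10, adjusted p = 0.374) were then at an unadjusted p under 0.05. With all libraries, Flt1 had 1.08 (SE 0.56), Pecam1 1.06 (SE 0.53), Plvap 0.84 (SE 0.57), Cdh5 0.55 (SE 0.59), Tjp1 0.38 (SE 0.41), and Kdr 0.07 (SE 0.59). Of the other endothelial genes, 19 of 20 were higher (median 0.87), 4 at an unadjusted p under 0.05. The neuron markers of the high library summed to 2961 CPM, the lowest of all 20, its Schwann cell markers to 59184 CPM, the highest, and the 20 other endothelial genes to 807 CPM, against 139 to 538 CPM elsewhere. Across the comparison, red cell genes were higher in 6 of 6 (median 3.40), each at an unadjusted p under 0.05, with sums of 1156 to 4651 CPM against 131 to 348 CPM. Macrophage genes were higher in 6 of 6 (median 1.24, 3 at an unadjusted p under 0.05) and spinal cord glia genes in 4 of 4 tested (median 3.25, 2 at an unadjusted p under 0.05). The part of these tissues in the members' levels was not tested.

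**Figure D5:**
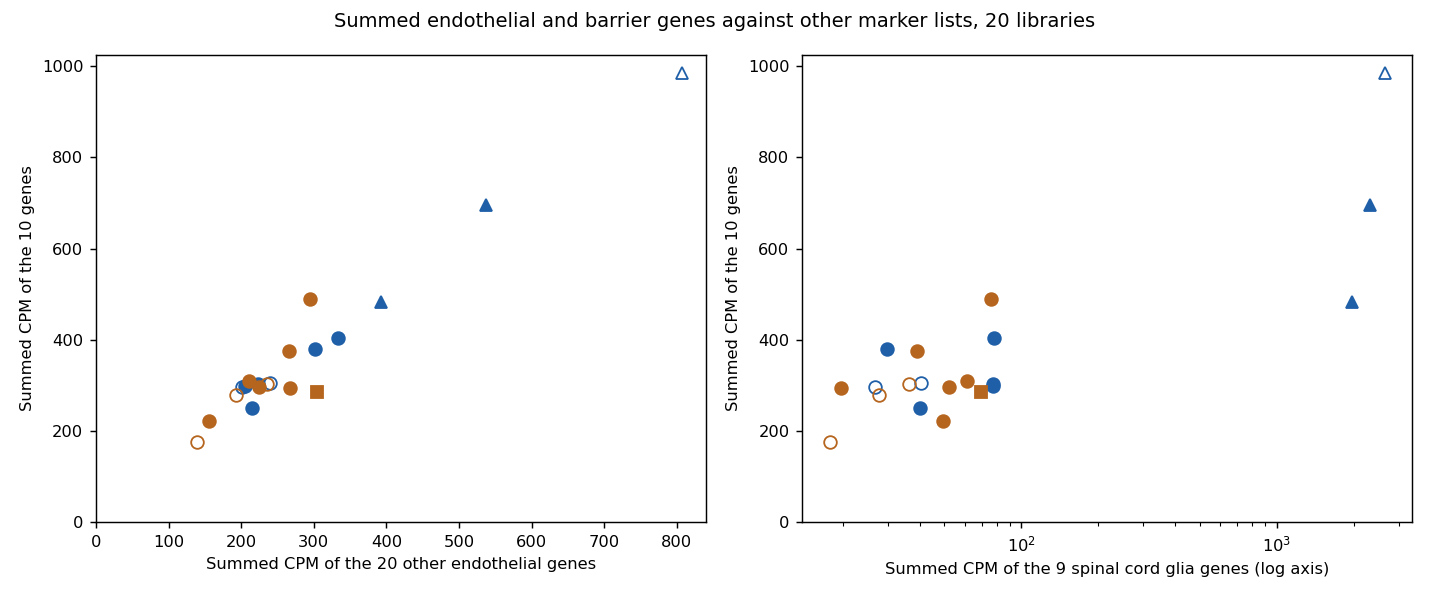
Summed CPM of the 10 genes in each library against the summed CPM of 20 other endothelial genes (left) and of 9 spinal cord glia genes (right, log axis), with colors and symbols as for the FPKM plot. The library at 985 CPM also has the highest sum of the other endothelial genes, 807 CPM, and of the spinal cord glia genes, 2635 CPM.

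Against sham DRG of the same diet, contralateral SOD-CCI DRG were lower for 10 of 10 members (median -0.78, with 51.7% of all genes lower), and contralateral FOD-CCI DRG were higher for 6 of 10 (median 0.19, with 49.3% of all genes higher), or for 4 of 10 without the 4 libraries (median -0.12). No gene was called by edgeR in either (0% in both), and DESeq2 called 52 and 0 genes, none of them a member. At an unadjusted p under 0.05 the first comparison had 1 member, Ocln as given above, beside 5.98% of all genes lower and 1.09% higher, and the second had none, beside 0.907% higher and 0.8% lower. Tek was the member whose contralateral SOD-CCI libraries (19.1, 19.8, and 24.2 CPM) all lay below SOD-CT (28.3 to 38.7 CPM), as did 3.76% of all genes, and 0 members and 4.93% of genes lay above without overlap. Without the 4 libraries, 10 of 10 members were again lower than in SOD-CT (median -0.76), 2 of them, Ocln and Cldn5, at an unadjusted p under 0.05. With all libraries, red cell genes were lower in the contralateral SOD-CCI DRG in 6 of 6, each at an unadjusted p under 0.05 (median -3.78), macrophage genes in 6 of 6 (median -1.24, 2 at that threshold), fibroblast genes in 5 of 5 (median -0.96, 2 at that threshold), and skeletal muscle genes in 7 of 7 tested (median -5.65). Their part in the members' values was not tested.

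The second Pecam1 gene model, of 322 bases, was at 0 in 12 of the 20 libraries and did not exceed 54 counts. It was at 0 in all SOD-CT and all contralateral FOD-CCI libraries and at 0.958, 0.527, and 1.07 CPM in the 3 FOD-CT libraries. Reads that could belong to either model may have been split between them, and how they were assigned is not given in the sources used here.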

How the data were processed

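DRG RNA was poly-A selected, and 20 libraries were sequenced. Trimming with fastp, alignment with HISAT2, and counting per gene with featureCounts 1.5.0-p3 were done by the authors. The deposited counts are whole numbers without scaling, 22547190 to 54437581 per library, and the authors computed the FPKM values from them with the gene lengths and a size per library of 14312139 to 55253011, against the totals above. How strand and multiply aligned reads were treated, and which genome build was used, is not given in the sources used here, so no coordinates from the files are printed. Each column was matched to a sample by its label, and 0 columns were left over.

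For each model, a gene was kept when 90% or more of the libraries held 10 or more counts. The tests used edgeR 4.0.16 under R 4.3.3 (TMM, two-sided quasi-likelihood test, Benjamini–Hochberg adjustment over all genes kept) with limma 3.58.1, and DESeq2 1.42.0 as an alternative. Calls required an adjusted p no higher than 0.1 together with a fold change no smaller than 1.2. A first model held the 14 left libraries with a mean per group, a second the 12 left and contralateral libraries of the 6 rats with both, with the rat as a block, and another the 13 sham and contralateral libraries. SE was taken from the log2FC and the F statistic. Replicates are separate rats. In the first and last models p-values measure the spread between rats of a group. In the second they measure how the difference between the sides varies from rat to rat. Scripts were tested on simulated data.

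Left and contralateral libraries with the same number come from the same rat, and their deviations from the group means correlated at 0.15 to 0.51. FOD-CCI and FOD-CT libraries with the same number, from different rats, also deviated together (0.49, 0.28, and 0.25), as did contralateral FOD-CCI and FOD-CT (0.70, 0.25, and 0.28), so these were also fitted with a replicate block. No other pair of groups had all 3 correlations above 0.1. The members and the gene lists were chosen with earlier results of these data known. Of the other lists, the text names the tested genes with the highest and lowest log2FC between sides, genes that were called, and the 5 genes most like the endothelial members. Gene names in the lists that are not in the files, such as Col1a2 and Cavin1, were not used. Alternatives were DESeq2, its size factors in edgeR, no filter, a gene length offset, the replicate block, only the compared groups, and each library or rat left out. A further one left out the 4 libraries named above, as far as a model held them. They are the 3 with the most spinal cord transcripts and the 1 with the most muscle transcripts. FOD-CT replicate 2, with 25514 CPM of muscle genes, was kept. Promoters came from RefSeq (GRCr8), and the sequences of 4 members were not analysed here.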

Additional observations from a re-analysis of the deposited data

Results flagged for a closer look

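With 4 libraries in a group, a library was singled out when its gap to the nearest other was a large share of the group's range. Chance passes this test in about 1 of 20 cases when values are normally distributed and cases are independent. The members share libraries and CPM were used without logarithms, so that rate need not hold here. Of 20 combinations of a member and a group of 4, 6 passed. In SOD-CT, Cdh5 was high in replicate 3 (33.1 CPM), Cldn5 was high in replicate 4 (180 CPM), and Kdr was low in replicate 1 (8.63 CPM), the library with the most muscle transcripts. In FOD-CCI, Cldn5 (170 CPM) and Flt1 (71.0 CPM) were high in the library labelled FOD-CCI replicate 1, which carried spinal cord transcripts, and Tek was high in replicate 4 (36.1 CPM). Outside the main measurement, the second Pecam1 gene model reached 1.96 CPM in the library labelled FOD-CCI replicate 1. Sham libraries of the same diet, FOD-CT, had 0.527 to 1.07 CPM, and every SOD-CT library had 0 CPM.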

How the results depend on the processing

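The number of members called stayed at 0 in all 11 comparisons under every alternative run except in 2 cases, both Ocln: 1 member was called between the sides on soy oil with only the 2 groups in the fit, and 1 between the contralateral DRG of the diets with the DESeq2 Wald test. Both cases use the same contralateral SOD-CCI libraries, at 1.14, 1.21, and 2.18 CPM of Ocln, and are not independent of each other. The replicate block, or its absence where the rat was the block, changed no call of a member. With no replicate block between the sides the count of all genes called was 0 on both diets, against 19 and 2. All genes called were also 594 in SOD-CCI against SOD-CT with DESeq2 and 200 without the 4 libraries (replicate 1 of SOD-CT, FOD-CT, FOD-CCI, and the contralateral FOD-CCI DRG), and 526 in FOD-CCI against FOD-CT without them. Between the sides on soy oil they were 472 with DESeq2, 220 with no filter on low counts, 471 without the 4 libraries, and 1461 (of 14794 tested) with only the 2 groups. On fish oil the same settings gave 264, 61, 137, and 1. Of 977 values of 56 log2FC of members, 41 changed sign. These cover all members in SOD-CCI against SOD-CT, FOD-CCI against SOD-CCI, both comparisons between the sides, and the contralateral DRG of the diets. From the other comparisons only members with an unadjusted p under 0.1 in edgeR were included, so the count is not a rate over all comparisons. Without the 4 libraries, members higher went from 7 to 1 of 10 in FOD-CT against SOD-CT, and from 3 to 7 of 10 in FOD-CCI against FOD-CT. The cause of these changes was not tested.

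In SOD-CCI against SOD-CT, a gene length offset gave -0.053 for Tjp1 and -0.013 for Kdr, and leaving out the 4 libraries gave -0.051 and -0.092. Leaving out single libraries moved Tjp1 from -0.051 to 0.22, Kdr from -0.091 to 0.35, Flt1 from -0.27 to 0.10, and Cdh5 from -0.63 to 0.20. In FOD-CCI against SOD-CCI, the length offset gave 0.16 for Tjp1, the replicate block gave -0.12 for Cdh5, and leaving out the 4 libraries gave -0.17 for Flt1. Single libraries moved Tjp1 from -0.13 to 0.00430, Flt1 from -0.17 to 0.68, and Cdh5 from -0.38 to 0.48. Between the sides on soy oil, single rats moved Flt1 from -0.17 to 0.032, Pecam1 from -0.054 to 0.33, and Plvap from -0.037 to 0.49. On fish oil, no filter on low counts gave 0.018 for Tjp1, 0.016 for Kdr, and 0.015 for Ocln, no replicate block gave -0.23 for Pecam1, and leaving out the rat of replicate 1 gave 0.33 for Tjp1, 0.21 for Tek, 0.60 for Kdr, and 0.69 for Ocln. Single rats moved Tjp1 from -0.39 to 0.33, Tek from -0.77 to 0.21, Kdr from -0.44 to 0.60, Pecam1 from -0.27 to 0.60, and Ocln from -0.59 to 0.69. Between the contralateral DRG of the diets, leaving out the 4 libraries gave -0.21 for Tjp1, -0.084 for Flt1, and -1.10 for Kdr, which had -0.031 with no filter and -0.019 with the replicate block. Single libraries moved Tjp1 from -0.21 to 0.63, Flt1 from -0.078 to 1.40, and Kdr from -1.09 to 0.44. The smallest count of a member in a library was 27, for Ocln, and counting error was not separated from the spread between rats.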
